A study of Mus musculus with 8 samples.

Results

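The 59 genes described here drive or accompany the cell division cycle. They are a named list, chosen by gene with earlier results of these data known. By symbol, 59 of 59 were matched among the 41388 gene identifiers of the deposited tables. They were measured in the whole ear skin of adult WT C57Bl/6 mice by RNA sequencing, with 1 library per mouse. The 4 control mice received the ethanol vehicle. The 4 treated mice received calcipotriol, a vitamin D analog known as MC903, on the skin at 1 nmol daily for 12 days. Both groups share the strain, the genotype and the tissue, and no other agent is named in the labels. The treatment is used in mice to produce itchy skin inflammation. The comparison asked of these genes was how those of DNA replication differ between the groups beside those of mitosis.

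A cell that divides first commits in G1, when cyclin D with Cdk4 or Cdk6, and then cyclin E with Cdk2, phosphorylate the retinoblastoma protein and release E2F transcription factors. E2F factors switch on the genes that license replication origins, unwind and copy DNA and make deoxynucleotides in S phase. The genes of G2 and mitosis come on later through the MuvB complex with B-Myb and FoxM1, which acts at a promoter element called the cell cycle genes homology region, or CHR. Inhibitors of the Cip/Kip and INK4 families restrain the kinases. In skin, division takes place mainly in the basal layer of the epidermis and in growing hair follicles, and leukocytes that enter inflamed skin can divide as well.

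Of the 59 genes, 58 had enough counts for the test across all genes, and Cdkn2a did not. In that fit 45 of the 58 were higher in MC903 skin, against 21.3% of the 16105 genes tested. Ccnd2 and Cdkn1c were lower, against 20.2% of all genes, and 11 did not pass. Both fell by at least 2-fold, against 7.66% of all genes. The threshold was an edgeR adjusted p of 0.05 over all genes. The median log2 fold change, MC903 over vehicle, was 0.98 over the 58 genes and -0.03 over all genes tested. At least 2-fold rises were found for 29 of the 58 genes, against 9.39% of all genes. The 4 MC903 values all lay above the 4 vehicle values for 44 of the 58 genes (19.8% of all genes), and all lay below them for 2 (18.9% of all genes).

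**Figure D1:**
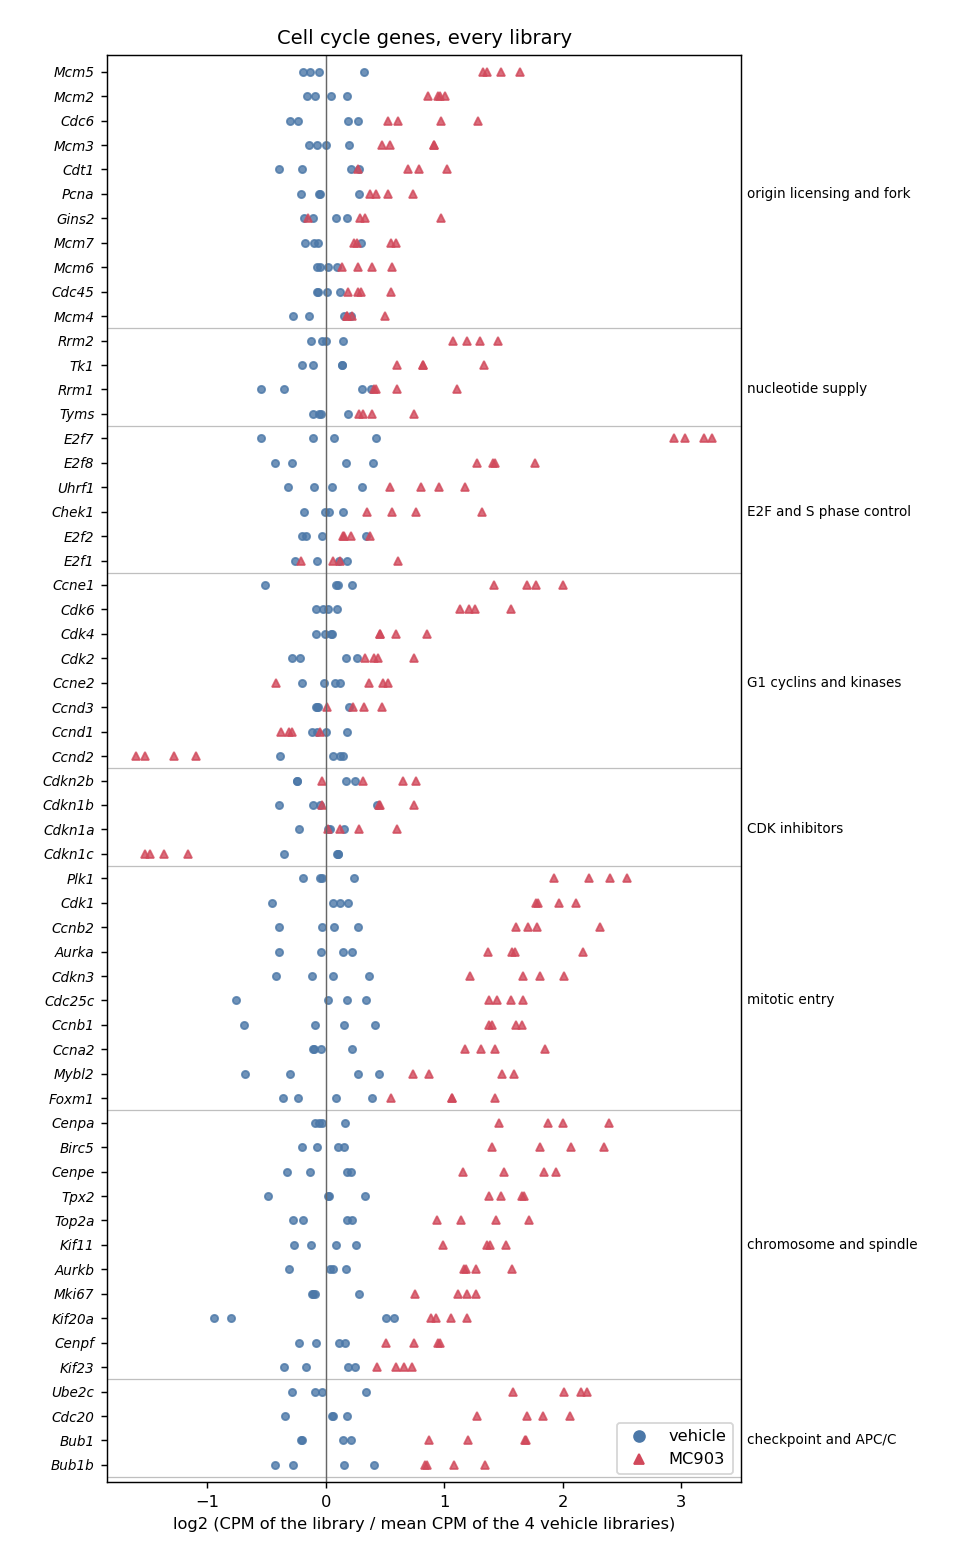
Each row is 1 gene and each symbol 1 library, placed by its log2 ratio of library-scaled counts (CPM) to the mean of the 4 vehicle libraries (circles, vehicle; triangles, MC903). For the 25 mitotic genes the MC903 symbols lie right of every vehicle symbol, while Ccnd2 and Cdkn1c lie to the left.

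The median rise was larger in the mitotic genes than in the replication genes. The genes were grouped by their textbook role into 21 replication genes, 25 mitotic genes, 8 G1 cyclins and kinases and 5 CDK inhibitors. Of the 25 mitotic genes, 25 rose, 23 of them by at least 2-fold, with a median log2 fold change of 1.52 and a range from 0.61 to 2.29. Of the 21 replication genes, 16 rose and 5 did not pass the test. Only 4 of the 21, E2f7, E2f8, Mcm5 and Rrm2, rose by at least 2-fold. The median log2 fold change of the 21 was 0.72, and with the narrower set of Mcm2 to Mcm7, Pcna and the E2f genes it was 0.52. In summed CPM, scaled by the library's total and a TMM composition factor, the mitotic genes took 329 to 452 in the vehicle libraries and 997 to 1161 in the MC903 libraries. The replication genes took 415 to 510 and 697 to 815.

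The same difference was seen within each library, where it does not depend on how libraries are scaled to each other. The mean log2 CPM of the mitotic genes minus that of the replication genes was -0.39, -0.40, -0.30 and -0.62 in vehicle replicates 1 to 4. It was 0.16, 0.41, 0.25 and 0.16 in MC903 replicates 1 to 4. The groups did not overlap, and their means lay 0.68 apart. No test was made of this score, because the genes were listed with earlier results of these data known. The mean over the mitotic genes alone ran from 3.18 to 3.63 log2 CPM in vehicle skin and from 4.85 to 5.08 in MC903 skin. For the replication genes it ran from 3.80 to 4.03 and from 4.599 to 4.82. Vehicle replicate 4 had the lowest value of its group for 25 of the 46 replication and mitotic genes and the highest for 0. Without it, the median log2 fold change of the mitotic genes was 1.34.

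**Figure D2:**
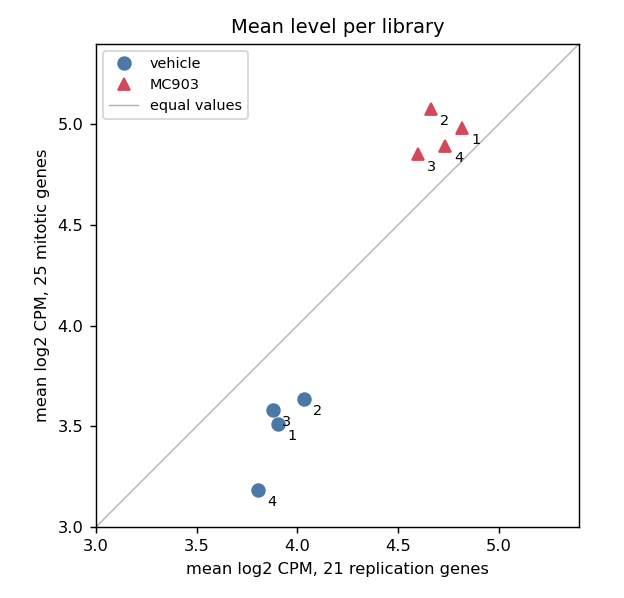
Each symbol is 1 library, with the mean log2 CPM of the 21 replication genes on the horizontal axis and that of the 25 mitotic genes on the vertical axis, and the line marks equal values. The 4 vehicle libraries lie below the line and the 4 MC903 libraries above it.

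Whole ear tissue was measured, so more dividing cells and more RNA per dividing cell cannot be told apart. Markers of other cell types were read from the same fit, in which 21.3% of all genes tested were higher and 20.2% lower. Of the leukocyte markers, 12 of 12 rose (median log2 fold change 1.31), and their summed level was 780 to 1013 CPM in vehicle and 1783 to 2611 CPM in MC903 libraries. Among 11 markers of suprabasal keratinocytes, 5 rose and 1 fell, and the sum went from 10258 to 11854 CPM up to 18835 to 22540 CPM. Krt6a, Krt6b and Krt16 carried much of that rise, and without these 3 genes, chosen after their values were seen, the sums were 10152 to 11635 CPM and 11061 to 14355 CPM and overlapped. Among 11 basal keratinocyte markers 1 rose, Krt14, and 4 fell, with a median log2 fold change of -0.27. The sums of these markers were 6816 to 9297 and 9888 to 11608 CPM. Krt14 itself averaged 1939 ± 257 CPM and 7077 ± 828 CPM (SD, n = 4 each). Krt14 gained more CPM than the sum did, so the rise of the sum came from Krt14. The rest of the basal list summed to less in the MC903 than in the vehicle libraries. Of the 9 tested hair matrix markers 1 rose, Hoxc13, and 5 fell, and their sums overlapped between the groups (78.1 to 186 and 67.3 to 123 CPM). Of the markers in these 4 lists, Shh of the hair matrix was at 0 in some libraries, and none was at 0 in all 8. Of the tested fibroblast markers 1 of 9 rose and 1 fell, and of the endothelial markers 1 of 9 rose and 0 fell, shares below those of all genes. Markers of cartilage (6 of 7) and of muscle (4 of 8) fell, and 0 rose. Vehicle replicate 4 had a muscle sum of 3060 CPM beside 7965 to 9290 CPM in the other vehicle libraries. Its fibroblast sum was 15552 beside 11190 to 11306 CPM, and its hair matrix sum 186 beside 78.1 to 104 CPM. Its endothelial sum was 141 beside 157 to 183 CPM. Its leukocyte, basal, suprabasal and cartilage sums lay within the range of the other vehicle libraries. The part of each cell type in the rise of the cell cycle genes was not tested.

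Library totals ran from 14223908 to 16837221 counts in the vehicle group and from 12310466 to 15575518 in the MC903 group, and 22205 to 23092 genes were detected per library. In vehicle replicate 2 a single salivary secretory gene, Bpifa2, took 24.5% of all counts, while the top gene of any other library took at most 2.93%. Without that library 42 of the cell cycle genes were higher and 2 lower. CPM values below are given for replicates 1 to 4 in order, and each fold change is on the log2 scale from the fit.

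Promoters of both classes were searched for the E2F and CHR elements, and 3 of each class are shown here because the classes differed in their median rise. Each window shown holds a match of its class, E2F for replication or CHR for mitosis. Many replication windows hold no E2F match, so those shown do not stand for the class. RefSeq windows of 300 bases, from 250 before to 50 after the transcription start (build GRCm38.p6), were at hand for 47 of the 59 genes. For 43 of their 53 windows, bases after the start were found in a transcript of the gene, but not for Mcm5 and Mcm6. The windows of E2f1, Chek1, Cdc6 and Mcm7 lay wholly inside the gene's span in the deposited tables. So did a further window each of Uhrf1, E2f2, Ccnd3, Cdkn1a and Cdkn2a. That of Uhrf1 holds an E2F word and that of E2f2 a CHR word. The shares below thus depend on the starts used. The genes with no window were Tpx2, Ccnd1, Ccnd2, Cdc25c, Mcm4, Ccna2, Kif20a, Aurkb, Gins2, Foxm1, Ccne2 and Cdkn1c. Each window was searched on both strands for 4 E2F words (TTTCCCGC, TTTCGCGC, TTTGCCGC and TTTGGCGC), for the CHR words TTTGAA and TTCGAA, and for CCAAT. In the sequences below, written 5′ to 3′ along the gene, E2F and CHR matches are in capitals and all else is in lower case. Mcm5 and Mcm6 encode helicase subunits and E2f7 a repressor of the E2F family. Plk1, Cdk1 and Cdc20 encode drivers of entry into and exit from mitosis.
Mcm5: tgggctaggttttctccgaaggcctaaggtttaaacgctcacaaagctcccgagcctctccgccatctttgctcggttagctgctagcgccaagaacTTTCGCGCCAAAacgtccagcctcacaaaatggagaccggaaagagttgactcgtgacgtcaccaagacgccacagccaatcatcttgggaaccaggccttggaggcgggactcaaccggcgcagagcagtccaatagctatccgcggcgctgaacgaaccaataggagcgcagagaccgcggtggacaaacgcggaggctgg
Mcm6: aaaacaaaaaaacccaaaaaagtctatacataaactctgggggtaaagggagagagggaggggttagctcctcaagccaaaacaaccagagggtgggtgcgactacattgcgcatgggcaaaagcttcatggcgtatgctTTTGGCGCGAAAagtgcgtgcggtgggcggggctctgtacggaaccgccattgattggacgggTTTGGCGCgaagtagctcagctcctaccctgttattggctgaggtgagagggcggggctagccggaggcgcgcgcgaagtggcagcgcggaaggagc
E2f7: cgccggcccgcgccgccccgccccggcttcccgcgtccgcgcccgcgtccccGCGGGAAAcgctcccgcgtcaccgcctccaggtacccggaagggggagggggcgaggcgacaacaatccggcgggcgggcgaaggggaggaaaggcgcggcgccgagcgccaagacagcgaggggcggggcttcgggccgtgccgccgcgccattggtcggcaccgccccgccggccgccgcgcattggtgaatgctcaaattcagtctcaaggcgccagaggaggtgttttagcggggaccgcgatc
Plk1: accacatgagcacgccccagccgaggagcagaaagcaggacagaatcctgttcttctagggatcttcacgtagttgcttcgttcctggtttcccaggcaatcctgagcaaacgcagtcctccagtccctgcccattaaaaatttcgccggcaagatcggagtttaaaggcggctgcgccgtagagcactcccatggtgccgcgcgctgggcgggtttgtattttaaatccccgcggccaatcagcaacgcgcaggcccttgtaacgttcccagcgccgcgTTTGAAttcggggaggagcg
Cdk1: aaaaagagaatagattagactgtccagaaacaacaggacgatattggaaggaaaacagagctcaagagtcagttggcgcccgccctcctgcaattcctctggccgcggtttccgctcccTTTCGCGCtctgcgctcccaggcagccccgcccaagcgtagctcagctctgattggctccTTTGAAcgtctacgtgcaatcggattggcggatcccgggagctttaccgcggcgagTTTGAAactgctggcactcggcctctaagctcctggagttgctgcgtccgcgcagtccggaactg
Cdc20: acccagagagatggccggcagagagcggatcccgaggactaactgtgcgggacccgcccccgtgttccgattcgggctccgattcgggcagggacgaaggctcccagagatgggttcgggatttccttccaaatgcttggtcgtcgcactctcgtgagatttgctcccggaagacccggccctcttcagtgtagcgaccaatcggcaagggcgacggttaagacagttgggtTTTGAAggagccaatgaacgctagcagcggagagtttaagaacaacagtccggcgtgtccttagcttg
The windows lie at chr8:75109259-75109558 on the plus strand (Mcm5), chr1:128359656-128359955 on the minus strand (Mcm6) and chr10:110745189-110745488 on the plus strand (E2f7). Those of the mitotic genes lie at chr7:122159185-122159484 on the plus strand (Plk1), chr10:69352863-69353162 on the minus strand (Cdk1) and chr4:118437294-118437593 on the minus strand (Cdc20).

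Positions count from the start base as 1, with the base before it as -1, and give the first base of the match along the gene. In Mcm5 an E2F word at -153 overlaps one at -149 on the other strand, and Mcm6 has the same kind of overlapping pair at -110 and -106 and a further match at -47. E2f7 has 1 match, TTTCCCGC on the opposite strand at -198. The CHR word TTTGAA stands at 31 in Plk1, at -71 and -15 in Cdk1 and at -18 in Cdc20. Cdk1 also has the E2F word TTTCGCGC at -131, the only E2F match among the mitotic windows.

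Over all windows searched, the E2F words occurred in 9 of 22 windows of replication genes (40.9%) and in 1 of 19 windows of mitotic genes (5.26%), against 2.26% of all 32851 windows and 3.48% of those of the genes tested. The CHR words showed the opposite split, with 15 of 19 mitotic windows (78.9%) and 5 of 22 replication windows (22.7%), against 19.2% of all windows and 14.5% of those of the genes tested. The mitotic windows without a CHR word were those of Mybl2, Cenpe, Birc5 and Ccnb1. Replication genes with no E2F word in their window were Pcna, Mcm2, Rrm1, Rrm2, Tk1, Tyms, E2f1, E2f8, Chek1 and Cdc45. Rrm2 and E2f8, which rose by at least 2-fold, are among these. CCAAT stood in 89.5% of mitotic, 72.7% of replication and 37.4% of all windows, and CHR with CCAAT in 78.9% of mitotic and 7.52% of all windows. No E2F match overlapped a CHR match. An E2F match overlapped a CCAAT in Mcm7, and CCAAT matches overlapped each other in Ube2c and Uhrf1. These are matches of letters, binding was not measured, and the shares were not tested.

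**Figure D3:**
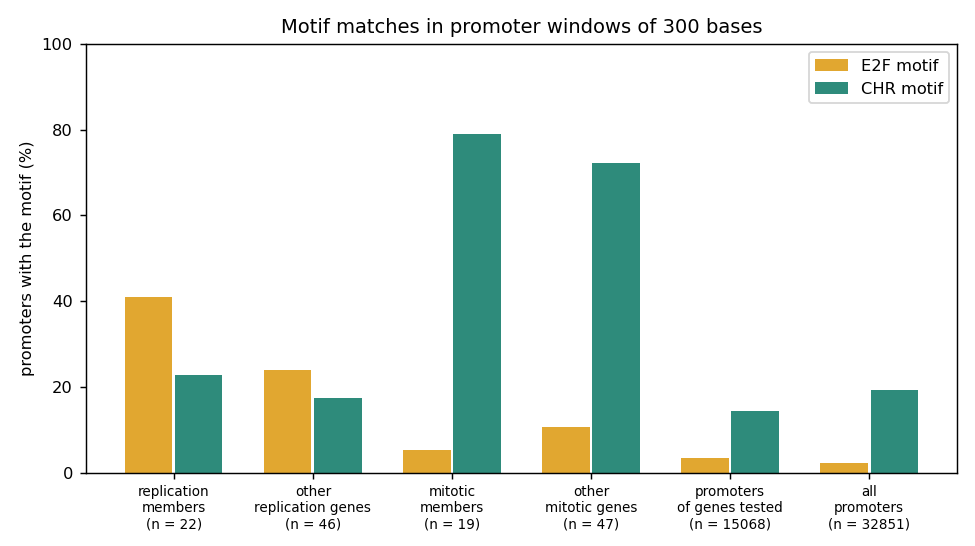
Bars give the percentage of promoter windows of 300 bases with an E2F word or a CHR word in each gene group, with the number of windows under each name. E2F words are most frequent in the replication windows (40.9%) and CHR words in the mitotic windows (78.9%).

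The replication genes begin with origin licensing and the helicase. The Mcm2 to Mcm7 proteins form the ring that is loaded at origins and unwinds DNA, and 5 of these 6 genes rose, with a median log2 fold change of 0.57 over the 6. Mcm5 (ENSMUSG00000005410, chr8:75109528-75128439, plus strand in mm10) had 14.8, 20.4, 15.7 and 14.2 CPM in vehicle-treated skin and 50.9, 41.9, 40.9 and 45.4 CPM after MC903. Its log2 fold change was 1.46 ± 0.14 (SE), the largest of the 6 (edgeR adjusted p = 2.05e-05). The lowest MC903 library of Mcm5 stood far above the highest vehicle library. Mcm2 had 12.5, 13.8, 10.9 and 11.4 CPM in vehicle-treated skin and 22.1, 24.4, 23.4 and 23.7 CPM after MC903, a log2 fold change of 0.95 ± 0.12 (SE; edgeR adjusted p = 0.000124), and its groups did not overlap either. Mcm4 had 35.0, 47.2, 49.1 and 38.5 CPM and 48.1, 47.9, 49.4 and 60.0 CPM, with groups that overlapped. Its log2 fold change of 0.27 ± 0.14 (SE) did not pass the test (edgeR adjusted p = 0.138), although its protein works in the same ring. The ratio of Mcm5 to Mcm4, a pair chosen after their values were seen, was 0.320 to 0.433 in vehicle and 0.758 to 1.06 in MC903 libraries.

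Mcm3 rose by a log2 fold change of 0.72 ± 0.14 (SE; edgeR adjusted p = 0.00219). Mcm6 (0.35) and Mcm7 (0.42) passed the threshold narrowly, with edgeR adjusted p of 0.0383 and 0.0368. The Mcm6 call was lost on leaving out any library but MC903 replicate 1 (edgeR adjusted p = 0.0536 to 0.0962). Mcm7 lost its call on leaving out replicate 1, 3 or 4 of the vehicle group or replicate 1 or 4 of the MC903 group (edgeR adjusted p = 0.0643 to 0.100). The loading factors Cdc6 (0.87) and Cdt1 (0.72) and the sliding clamp Pcna (0.52) rose. Cdt1 did not pass when vehicle replicate 2, vehicle replicate 3 or MC903 replicate 3 was left out (edgeR adjusted p = 0.0502 to 0.0608). Cdc45 (0.33) and Gins2 (0.42), which complete the active helicase with the Mcm ring, did not pass the test. Gins2 passed without MC903 replicate 4 (edgeR adjusted p = 0.0333), but 67.3% of its exon bases overlap Gse1 on the opposite strand, and the counts cannot tell the strands apart. Without MC903 replicate 4 the median of the 21 replication genes was 0.57.

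Genes of deoxynucleotide supply rose in 4 of 4 cases, with a median log2 fold change of 0.79. Rrm2, the regulated subunit of ribonucleotide reductase, had 50.8, 57.6, 51.9 and 47.7 CPM in vehicle-treated skin and 128, 143, 109 and 119 CPM after MC903. Every MC903 library lay above every vehicle library, and the log2 fold change was 1.26 ± 0.12 (SE; edgeR adjusted p = 1.8e-05). Tk1, the thymidine kinase of the salvage route, had 24.7, 24.7, 19.5 and 20.9 CPM and 56.6, 39.6, 39.8 and 34.2 CPM, a log2 fold change of 0.92 ± 0.17 (SE; edgeR adjusted p = 0.00121). MC903 replicate 1 was the highest for Tk1, and the groups did not overlap. Rrm1, the other reductase subunit, had 49.8, 89.7, 94.4 and 56.8 CPM and 96.4, 110.0, 97.3 and 157 CPM. Its highest vehicle libraries came close to the lowest MC903 libraries, and its log2 fold change was 0.66 ± 0.23 (SE; edgeR adjusted p = 0.0382). Rrm1 no longer passed when vehicle replicate 1, vehicle replicate 4, MC903 replicate 2 or MC903 replicate 4 was left out (edgeR adjusted p = 0.0594 to 0.100). Tyms, thymidylate synthase, rose by a log2 fold change of 0.44 ± 0.13 (SE; edgeR adjusted p = 0.0203). Tyms no longer passed when vehicle replicate 1, 3 or 4 was left out (edgeR adjusted p = 0.0523 to 0.0596).

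The repressors E2f7 and E2f8, which are themselves E2F targets and damp the programme late in S phase, rose, and the activators E2f1 and E2f2 did not pass the test. E2f7 (ENSMUSG00000020185, chr10:110745439-110787384, plus strand in mm10), with the single E2F word in its promoter window, had 3.36, 4.30, 2.97 and 2.19 CPM in vehicle-treated skin and 30.8, 26.2, 29.4 and 24.6 CPM after MC903. That is an 8.70-fold rise (log2 fold change 3.12 ± 0.19 SE, edgeR adjusted p = 8.95e-07), the largest among the 58 genes. E2f8 had 8.72, 7.45, 5.43 and 4.93 CPM and 17.6, 22.6, 17.9 and 16.1 CPM, a log2 fold change of 1.48 ± 0.20 (SE; edgeR adjusted p = 0.000157). The groups of both repressors did not overlap. E2f1, the activator, had 6.36, 6.07, 4.68 and 5.31 CPM and 8.57, 6.08, 4.84 and 5.84 CPM, and its log2 fold change of 0.18 ± 0.20 (SE) did not pass the test (edgeR adjusted p = 0.504). Without MC903 replicate 1, its highest library, E2f1 had a log2 fold change of -0.0012 (edgeR adjusted p = 0.996). E2f2 had a log2 fold change of 0.22 ± 0.15 (SE; edgeR adjusted p = 0.249), with overlapping groups. The difference in response between repressors and activators was not tested.

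The ratio of E2f7 to E2f1 within a library was 0.412 to 0.709 in vehicle and 3.59 to 6.07 in MC903 skin, and that of E2f8 to E2f1 was 0.929 to 1.37 and 2.06 to 3.71. Both ratios were formed after the values were seen, so they are a description only. Per kilobase of gene length, E2f7 went from 0.356 to 3.08 CPM and E2f1 from 1.78 to 2.01. Chek1, the checkpoint kinase of replication stress, rose by a log2 fold change of 0.79 ± 0.21 (SE; edgeR adjusted p = 0.0123). Uhrf1, which keeps DNA methylation through replication, rose by 0.89 ± 0.17 (SE; edgeR adjusted p = 0.0018).

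**Figure D4:**
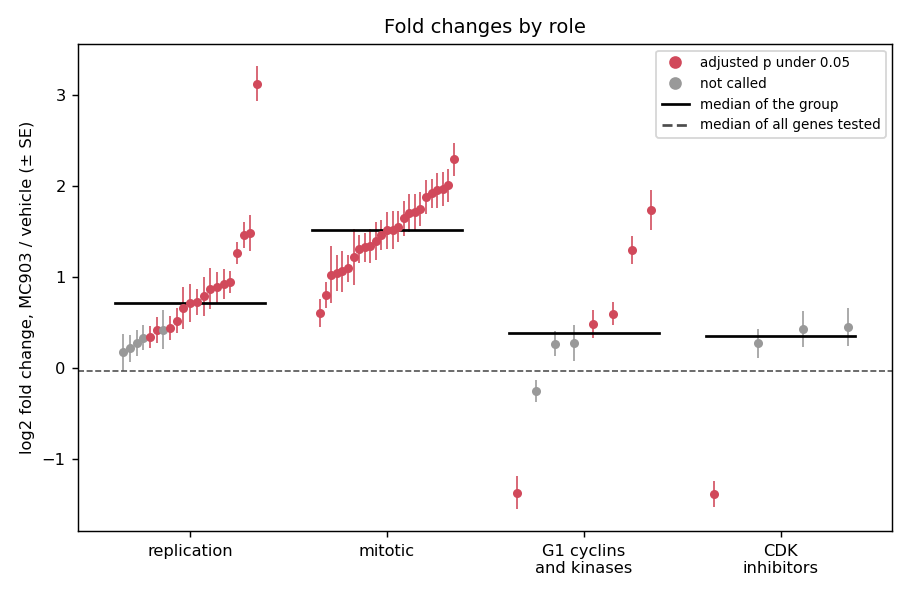
Points give the log2 fold change of MC903 over vehicle (bars, SE) of the 58 tested genes in 4 role groups, coloured by whether they passed the test. Group medians (solid lines) are 0.72 for replication, 1.52 for mitosis, 0.38 for the G1 cyclins and kinases and 0.35 for the CDK inhibitors, and the dashed line is the median of all genes tested, -0.03.

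Among the mitotic genes, the 10 of entry into mitosis all rose, with a median log2 fold change of 1.61 and a range from 1.06 to 2.29. Plk1 (ENSMUSG00000030867, chr7:122159437-122169875, plus strand in mm10), a kinase needed for spindle assembly and mitotic entry, had 2.83, 3.46, 2.86 and 2.56 CPM in vehicle-treated skin and 17.1, 15.4, 11.1 and 13.6 CPM after MC903. It rose 4.90-fold (log2 fold change 2.29 ± 0.18 SE, edgeR adjusted p = 4.6e-06), the most of the 25. Cdk1 (ENSMUSG00000019942, chr10:69336635-69352938, minus strand in mm10), the kinase that drives mitosis with the B cyclins, had 21.9, 23.0, 21.02 and 14.7 CPM and 87.4, 78.7, 68.8 and 69.8 CPM. The log2 fold change of Cdk1 was 1.92 ± 0.16 (SE; edgeR adjusted p = 5.66e-06), and vehicle replicate 4 was the lowest library. Its partners Ccnb1 (1.52), Ccnb2 (1.88) and Ccna2 (1.46), the activating phosphatase Cdc25c (1.52) and the kinase Aurka (1.71) rose by log2 fold changes of a like size. Cdkn3, a phosphatase that acts on cyclin-dependent kinases, rose by 1.70 ± 0.21 (SE; edgeR adjusted p = 7.58e-05).

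The 2 transcription factors of this phase rose by less than the median of the 25 mitotic genes. Mybl2, the gene of B-Myb, was the weakest call of the entry genes, with 2.003, 1.77, 0.914 and 1.19 CPM in vehicle-treated skin and 4.12, 4.42, 2.45 and 2.68 CPM after MC903. The groups of Mybl2 did not overlap, and the log2 fold change was 1.22 ± 0.30 (SE; edgeR adjusted p = 0.008). Foxm1 averaged 4.77 ± 1.14 CPM in vehicle-treated skin and 9.95 ± 2.39 CPM after MC903 (SD, n = 4 each), and its fold change on the log2 scale was 1.06 ± 0.22 (SE; edgeR adjusted p = 0.00311). Whether these 2 rises differ from those of the other genes was not tested.

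Genes of chromosome structure, the kinetochore and the spindle rose in 11 of 11 cases, with a median log2 fold change of 1.33. Cenpa, the histone variant that marks centromeres, had 12.0, 10.5, 9.998 and 10.2 CPM in vehicle-treated skin and 39.2, 56.0, 42.8 and 29.4 CPM after MC903, a log2 fold change of 1.97 ± 0.19 (SE; edgeR adjusted p = 1.45e-05). Birc5, the survivin subunit of the chromosomal passenger complex, had 18.1, 17.5, 15.5 and 14.2 CPM and 83.5, 68.7, 57.4 and 43.3 CPM, a log2 fold change of 1.95 ± 0.19 (SE; edgeR adjusted p = 1.9e-05). For both genes MC903 replicate 4 was the lowest library of its group, and the groups did not overlap. Kif20a, a kinesin of cytokinesis, had 6.54, 18.7, 17.9 and 7.25 CPM and 26.2, 23.3, 24.0 and 28.8 CPM. Vehicle replicates 2 and 3 of Kif20a stood near the MC903 libraries, and its log2 fold change was 1.02 ± 0.31 (SE; edgeR adjusted p = 0.0216). Of the exon bases of Kif20a, 33.2% overlap Cdc23 on the opposite strand.

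The proliferation marker Mki67 averaged 56.7 ± 8.04 CPM in vehicle-treated skin and 121 ± 18.1 CPM after MC903 (SD, n = 4 each), and its log2 fold change was 1.10 ± 0.15 (SE; edgeR adjusted p = 0.000167). Top2a, the topoisomerase that untangles chromosomes, averaged 77.2 ± 13.4 and 195 ± 45.9 CPM, a log2 fold change of 1.34 ± 0.19 (SE; edgeR adjusted p = 0.000222). The passenger kinase Aurkb (1.31), the kinetochore motor Cenpe (1.64), the spindle motor Kif11 (1.33) and the spindle factor Tpx2 (1.55) rose more than 2-fold as well. The exceptions were the kinetochore protein Cenpf (0.80) and the midzone kinesin Kif23 (0.61), which rose by less than 2-fold.

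The spindle checkpoint and the anaphase-promoting complex gave 4 rises among 4 genes, with a median log2 fold change of 1.57. Ube2c, the ubiquitin-conjugating enzyme of that complex, had 16.7, 12.9, 12.3 and 10.8 CPM in vehicle-treated skin and 58.6, 60.7, 53.3 and 39.4 CPM after MC903. The log2 fold change of Ube2c was 2.01 ± 0.18 (SE; edgeR adjusted p = 9.52e-06), with no overlap. Of the exon bases of Ube2c, 22.8% overlap Tnnc2, a muscle gene on the opposite strand, which itself had a log2 fold change of -0.69 ± 0.44 (SE; edgeR adjusted p = 0.231). Cdc20, the activator of the complex, had 5.36, 5.38, 5.83 and 4.06 CPM and 21.6, 18.4, 16.8 and 12.5 CPM, a log2 fold change of 1.75 ± 0.19 (SE; edgeR adjusted p = 3.99e-05). Bub1b, a checkpoint protein that holds Cdc20 in check, had 8.25, 12.4, 14.7 and 9.18 CPM and 23.5, 19.9, 20.1 and 28.2 CPM. The lowest MC903 library of Bub1b lay above the highest vehicle library, and the log2 fold change was 1.04 ± 0.20 (SE; edgeR adjusted p = 0.00164). The checkpoint kinase Bub1 rose by 1.39 ± 0.21 (SE; edgeR adjusted p = 0.000384).

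The G1 cyclins and their kinases moved in both directions. Of 8 genes, Cdk4, Cdk6, Ccne1 and Cdk2 rose, Ccnd2 fell, and Ccnd1, Ccnd3 and Ccne2 did not pass the test. That is 50% higher and 12.5% lower, against 21.3% and 20.2% of all genes. The share that fell was below that of all genes, so the fall of Ccnd2 is a single value and not a result on the group. Cdk6 (ENSMUSG00000040274, chr5:3343893-3523218, plus strand in mm10) had 231, 241, 261 and 248 CPM in vehicle-treated skin and 724, 538, 569 and 588 CPM after MC903. Its log2 fold change was 1.30 ± 0.15 (SE; edgeR adjusted p = 6.24e-05), and MC903 replicate 1 was the highest library. Ccnd2 (ENSMUSG00000000184, chr6:127125779-127151048, minus strand in mm10), a D-type cyclin that binds the same kinase, had 449, 649.9, 639.8 and 615 CPM and 204, 194, 242 and 276 CPM. Every MC903 library of Ccnd2 lay below every vehicle library, and the log2 fold change was -1.36 ± 0.18 (SE; edgeR adjusted p = 0.000157). Per kilobase of gene length, Ccnd2 had the highest level of the 59 genes in vehicle skin, 103 CPM, and 40.1 CPM in MC903 skin. Cdk6 went from 65.7 to 162 CPM per kilobase. The ratio of Cdk6 to Ccnd2 per length, formed after the values were seen, was 0.565 to 0.786 in vehicle and 3.26 to 5.43 in MC903 libraries.

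The other D cyclins had overlapping groups, with log2 fold changes of -0.25 ± 0.12 (SE) for Ccnd1 (edgeR adjusted p = 0.116) and 0.27 ± 0.14 (SE) for Ccnd3 (edgeR adjusted p = 0.13). Cdk4 rose by 0.60 ± 0.13 (SE; edgeR adjusted p = 0.00319), and Cdk2 by 0.49 ± 0.16 (SE; edgeR adjusted p = 0.0278). Cdk2 did not pass when vehicle replicate 2, vehicle replicate 3 or MC903 replicate 2 was left out (edgeR adjusted p = 0.0795 to 0.0847). Of the E cyclins, which activate Cdk2, 1 of 2 rose. Ccne1 had 1.83, 1.84, 1.20 and 1.999 CPM in vehicle-treated skin and 5.87, 4.58, 5.57 and 6.90 CPM after MC903, a log2 fold change of 1.74 ± 0.22 (SE; edgeR adjusted p = 0.000108) with no overlap. Ccne2 had 11.4, 10.1, 12.5 and 12.2 CPM and 8.64, 16.6, 14.8 and 16.1 CPM, and its log2 fold change of 0.28 ± 0.20 (SE) did not pass the test (edgeR adjusted p = 0.274). MC903 replicate 1 was the lowest library of its group for Ccne2, and without it the gene passed (edgeR adjusted p = 0.0152). Of the exon bases of Ccne2, 17.4% overlap Ints8 on the opposite strand, and 21.3% of those of Ccnd1 overlap LTO1. Other overlaps of this kind were found for Cdk4 with Tspan31 (18.6%), Ccna2 with Exosc9 (14.6%), Cdc45 with Ufd1 (9.28%) and Mcm7 with Ap4m1 (7.25%).

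**Figure D5:**
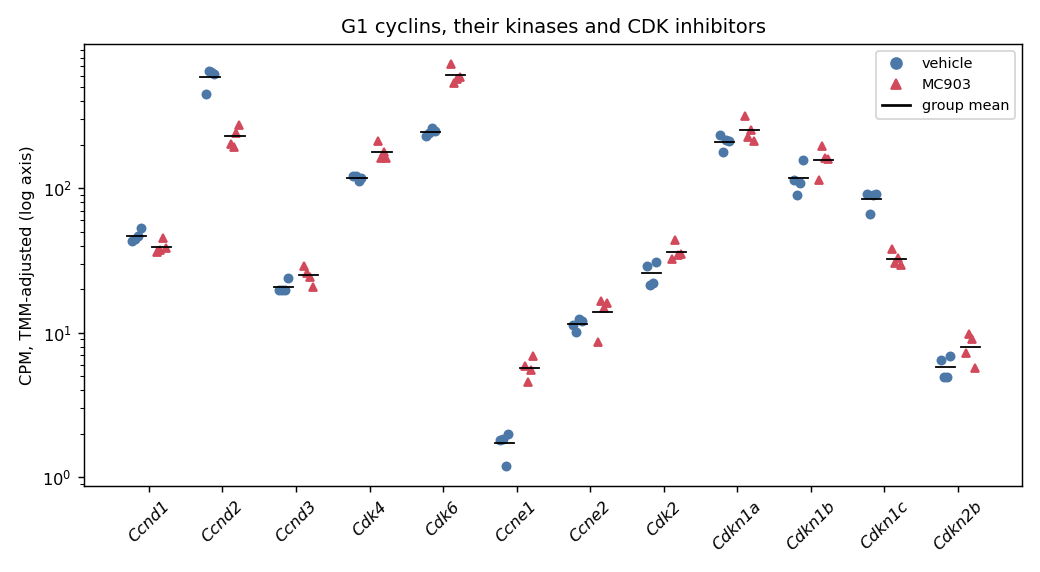
CPM on a log axis for the G1 cyclins, their kinases and the CDK inhibitors, with 1 symbol per library (circles, vehicle; triangles, MC903) and lines at group means. The MC903 symbols of Cdk6 and Ccne1 lie above the vehicle symbols, and those of Ccnd2 and Cdkn1c lie below them.

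None of the 4 tested CDK inhibitors rose, and 1 fell (25%), against 21.3% higher and 20.2% lower among all genes. With 4 genes these shares are not a result on the group, and the genes are given as single values. Cdkn1c (ENSMUSG00000037664, chr7:143458350-143461050, minus strand in mm10), an imprinted inhibitor of the Cip/Kip family, had 91.4, 66.5, 90.5 and 91.4 CPM in vehicle-treated skin and 37.9, 30.3, 32.9 and 29.5 CPM after MC903. The groups did not overlap, vehicle replicate 2 was the lowest of its group, and the log2 fold change was -1.38 ± 0.14 (SE; edgeR adjusted p = 2.56e-05). Cdkn1a, the inhibitor induced by p53, had 233, 179, 215 and 212 CPM and 319, 227, 255 and 212 CPM. The highest library of Cdkn1a was MC903 replicate 1, the groups overlapped, and the log2 fold change was 0.27 ± 0.16 (SE; edgeR adjusted p = 0.192). Cdkn2b, an inhibitor of Cdk4 and Cdk6, had 6.54, 4.92, 4.91 and 6.87 CPM and 7.22, 9.83, 9.14 and 5.68 CPM, a log2 fold change of 0.45 ± 0.21 (SE; edgeR adjusted p = 0.101). Cdkn1b, the third Cip/Kip gene, had a log2 fold change of 0.43 ± 0.20 (SE; edgeR adjusted p = 0.105). Both passed without 1 library, Cdkn2b without MC903 replicate 4 (edgeR adjusted p = 0.0331) and Cdkn1b when vehicle replicate 4 or MC903 replicate 1 was left out (edgeR adjusted p = 0.0278 and 0.0313).

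Cdkn2a, which encodes an INK4 inhibitor and the Arf protein, was too low for the test, with 0 counts in each of the 4 vehicle libraries and 5, 5, 4 and 5 counts in MC903 replicates 1 to 4. Against a floor of 3 counts over the whole vehicle group, its pooled MC903 level was at least 7.41-fold higher. Cdkn2a passed when genes were not filtered (edgeR adjusted p = 0.00089) and in DESeq2 (adjusted p = 0.00076). Floors of this kind cover counting error only.

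Wider lists of the same pathway were read from the same fit, beside 21.3% of all genes higher and 20.2% lower. Of 47 other replication genes 21 rose, 0 fell and 26 did not pass, with a median log2 fold change of 0.41. The largest rises were Dbf4 (1.84), the activator of the origin-firing kinase Cdc7, Gmnn (1.46), the inhibitor of Cdt1, and the exonuclease Exo1 (1.44). Of 46 other mitotic genes 41 rose, 0 fell and 5 did not pass, with a median of 1.17. The kinetochore gene Spc24 (1.82), the cohesin protector Sgo1 (1.66) and the kinesin Kif2c (1.64) rose the most. The 5 that did not pass were Pttg1 (-0.22), Espl1 (-0.06), Ttk (0.04), Ckap5 (0.10) and Smc4 (0.57), named because they are the exceptions. The E2F words stood in 23.9% of the windows of the other replication genes and in 10.6% of those of the other mitotic genes. For the CHR words these shares were 17.4% and 72.3%.

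Among 31 other regulators of the cycle 10 rose (32.3%), 5 fell (16.1%) and 16 did not pass, with a median log2 fold change of 0.13. These shares lie near those of all genes (21.3% and 20.2%), so the genes named here are single values and not a result on the list. The kinase subunits Cks2 (1.52) and Cks1b (1.22) and the inhibitor of the anaphase-promoting complex Fbxo5 (1.16) rose. Wee1, the kinase that holds Cdk1 inactive, averaged 13.4 ± 1.61 CPM in vehicle-treated skin and 5.37 ± 0.796 CPM after MC903 (SD, n = 4 each), and its log2 fold change was -1.33 ± 0.16 (SE; edgeR adjusted p = 8.16e-05). Cdkn2c, an INK4 inhibitor, averaged 82.0 ± 15.8 and 40.3 ± 3.40 CPM, a log2 fold change of -1.02 ± 0.15 (SE; edgeR adjusted p = 0.000277). Both Wee1 and Cdkn2c fell in every MC903 library below the lowest vehicle library.

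Of 19 known target genes of p53, which restrains the cycle after damage, 8 rose (42.1%), 2 fell (10.5%) and 9 did not pass, with a median of 0.40, against 21.3% higher and 20.2% lower among all genes. Pmaip1 (2.90), a promoter of cell death, Gadd45a (1.64) and Sesn2 (1.43), both stress genes, rose the most, and Trp53inp1 (-0.91) and Sesn1 (-0.90) fell. Replication-dependent histone genes supply the new chromatin of S phase. Of 66 such genes 14 could be tested, 7 rose and 0 fell, led by Hist1h2ae (2.39), Hist1h1b (1.66) and Hist1h1e (1.48). The 66 genes held 5608 counts in all in the vehicle group and 8843 in the MC903 group, not scaled for depth. In summed CPM they took 84.2 to 92.1 in the vehicle libraries and 129 to 208 in the MC903 libraries. They are near-identical copies, so the assignment of their reads is uncertain.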

How the data were processed

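The 8 libraries are 4 vehicle and 4 MC903 samples of whole ear skin, grouped by their labels, and the series text speaks of separate mice. Per the labels' protocols, total RNA was freed of ribosomal RNA, primed with random hexamers and read as single reads, with no step that marks strand. STAR 2.0.4b, Subread, featureCounts 1.4.5 and the build mm10 are named, without roles, in the submitters' processing notes. Which annotation, strand setting and rule for reads with several matches were used is not given in the sources used here. Whole-number counts per Ensembl gene were deposited by the authors, with CPM and RPKM beside them. The deposited CPM and RPKM values were only checked against the counts, from which every result was computed. Of 41388 identifiers, 40254 were named from a symbol table and 1134 were not.

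Genes were filtered with filterByExpr, scaled by TMM factors and compared by the quasi-likelihood test of edgeR 4.0.16 (R 4.3.3), with treatment group the sole term. Benjamini-Hochberg adjustment ran over 16105 genes at a threshold of 0.05. Printed CPM values are TMM-adjusted. Before TMM adjustment, library totals of 12310466 to 16837221 counts make 3 counts equal to 0.178 to 0.244 CPM. Libraries of a group differed beyond sampling noise (chi-square per degree of freedom at least 11.0), so none was counted as a repeat of another. The alternatives were other scalings, no filter or a stricter one, DESeq2 1.42.0, limma-voom (limma 3.58.1), a replicate block and leaving out each library.

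The genes, their role groups, the pathway and marker lists and the motifs were chosen with earlier results of these data known. The replication genes were split into lists of licensing and the fork, nucleotide supply, and E2F control. The mitotic genes were split into lists of entry, chromosome and spindle, and checkpoint, and the other role groups were a list each. In each list, values of every library are given for the 2 genes with the smallest p and the gene with the largest p. Any gene called against its list is shown likewise. Each wider list is represented by the called genes with the 3 largest rises and the 2 largest falls, and other genes named there were chosen after their values were seen. No list or score was tested.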

Additional observations from a re-analysis of the deposited data

Results flagged for a closer look

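In 4 of 116 sets of 4 libraries, a gene of 1 group had a single library far from the other 3, judged by the gap to its nearest neighbour as a share of the whole range. Chance alone flags about 1 in 20 such sets. Mcm4 in MC903 replicate 4 stood at 60.0 CPM beside 47.9 to 49.4 CPM in the others (share 0.879). Ccnd3 in vehicle replicate 4 stood at 23.9 CPM beside 19.7 to 19.9 CPM (share 0.954). Cdkn1c in vehicle replicate 2 stood at 66.5 CPM beside 90.5 to 91.4 CPM (share 0.964), still above all MC903 libraries. Mki67 in vehicle replicate 2 stood at 68.8 CPM beside 52.2 to 53.3 CPM (share 0.931), still below all MC903 libraries.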

How the results depend on the processing

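Of the 58 tested genes, 1 changed its sign in 1 of the 16 alternatives: E2f1, which passed the test in none, had a log2 fold change of -0.0012 without MC903 replicate 1 and of up to 0.29 on leaving out the other libraries. Of the 47 calls, 39 held in all of them, including 25 of 25 mitotic genes and 10 of 16 replication genes. Beside the calls lost without a library, those of Mcm6, Mcm7, Cdt1, Tyms and Cdk2 were lost with library sizes alone, as were Pcna (edgeR adjusted p = 0.107) and Cdk4 (edgeR adjusted p = 0.0573). Upper quartile factors lost Mcm6, Mcm7, Rrm1 and Cdk2 (edgeR adjusted p = 0.0502 to 0.0770). The replicate block lost Mcm6, Mcm7, Tyms and Cdk2 (edgeR adjusted p = 0.0525 to 0.0824). Without a filter Mcm6 and Mcm7 were lost (edgeR adjusted p = 0.0861 and 0.0522). Leaving out each library in turn gave 5514 to 7072 genes called, 40 to 46 of the listed genes higher and 2 lower. It gave medians of 0.57 to 0.77 for the replication genes and 1.34 to 1.56 for the mitotic genes, and a difference between the groups' mitotic minus replication scores of 0.61 to 0.72. Restricting the replication genes to Mcm2 to Mcm7, Pcna and the E2f genes gave a median of 0.52. With library sizes alone, 38 genes of the list were higher, and with DESeq2 46, Cdkn2a among them. The share of higher calls among all called genes went from 51.2% to 43.1% with upper quartile factors. With these factors 41 genes of the list were higher and 3 lower, Ccnd1 among the latter (log2 fold change -0.33, edgeR adjusted p = 0.0482). Replicate numbers did not pair the libraries: correlations of same-numbered libraries ran from -0.204 to 0.0568, and 0 libraries correlated best with their own number. With the replicate block, 5705 genes were called, 41 of the list higher and 2 lower. Random-hexamer counts without strand limit genes that overlap others, and the low counts of Cdkn2a limit its value.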

Other observations

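MC903 replicates 1 and 4 differed from each other by gene length. They were compared because they most often stood highest in their group, for 19 and 17 of the 46 replication and mitotic genes. Over the 46 replication and mitotic genes, the log2 ratio of replicate 1 to replicate 4 had a Spearman correlation of -0.48 with gene length across genes, which share these 2 libraries and are not independent. Replicate 1 was higher for 17 of the 23 shorter genes (median log2 ratio 0.32) and for 9 of the 23 longer genes (median -0.25). Over 13701 genes with at least 20 counts in both libraries the correlation was -0.33. For vehicle replicate 1 against vehicle replicate 2, the correlation was -0.27 over the same 46 genes and 0.08 over 14110 genes. This vehicle pair was not chosen by the same rule, since vehicle replicates 3 and 2 most often stood highest, for 18 and 16 genes. It also includes replicate 2, with its high Bpifa2 counts, so the 2 pairs are not a like comparison. The mitotic genes had a median length of 3510 bases and the replication genes of 4097 bases, and the fold change of the 46 genes had a correlation of -0.21 with length. The part of length in the fold changes was not tested.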
